A study of Mus musculus with 2 samples.

Results

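The IL-1 and IL-18 receptor gene cluster lies on mouse chromosome 1, and is taken here as the stretch from 40110000 to 40650000 of mm9 (540 kb). It holds 6 receptor genes in the order Il1r2, Il1r1, Il1rl2, Il1rl1, Il18r1 and Il18rap. The stretch was chosen by position, and every place in it where reads of STAT3 or STAT5 chromatin immunoprecipitation piled up was described: 59 sites, of 86148 in the genome. STAT3 and STAT5 are transcription factors that cytokine receptors activate by phosphorylation. Chromatin immunoprecipitation with sequencing recovers the DNA to which such a factor is crosslinked.

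The receptors of this cluster share an extracellular immunoglobulin fold and, with the exception of Il1r2, a cytoplasmic domain that signals through the adaptor MyD88. Il1r1 encodes the signalling receptor of IL-1, a cytokine known for promoting the differentiation of T helper 17 (Th17) cells, and Il1r2 encodes a decoy receptor that binds IL-1 without signalling. Il1rl2 encodes the receptor of IL-36, and Il1rl1 encodes ST2, the receptor of IL-33, known from T helper 2 and regulatory T cells. Il18r1 and Il18rap encode the ligand-binding and accessory chains of the IL-18 receptor, known from T helper 1 cells and natural killer cells.

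Both libraries came from wild-type C57BL/6J mice, whose naive CD4 T cells (CD44-CD62L+, of spleen and lymph node origin) were sorted and cultured for 3 days under Th17 conditions, with IL-6 at 20 ng/ml, TGF-beta at 2 ng/ml, plate-bound antibodies to CD3 and CD28, and an antibody to IL-4. An antibody to IL-2 is listed too, but its dose is in IU/ml, as doses of the cytokine are, and it is not known here if IL-2 was neutralised. The cells for the STAT3 library were restimulated with IL-6 at 40 ng/ml and those for the STAT5 library with IL-2 at 200 IU/ml, each for 30 minutes, and were fixed with 1% formaldehyde. The STAT3 library was made with 1 antibody, and for the STAT5 library a STAT5a antibody and a STAT5b antibody were mixed. The antibody and the cytokine therefore differed together and cannot be told apart, and each antibody had 1 library, with no input or control library analysed here. Such reads measure binding and not expression, so the Th17 label could not be checked against marker genes, and which of the 6 genes the cells expressed was not measured.

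There were 20784388 STAT3 reads and 17963766 STAT5 reads on nuclear chromosomes. Counts are given as reads in 200 bp, or as RPM, reads scaled to 1000000 nuclear reads of the same library. No position and strand carries more than 1 deposited read, so that 200 bp can hold at most 400 reads and differences between the tallest sites are compressed. Ratios are STAT3 over STAT5 RPM with an exact 95% interval that covers counting error only, and amplified reads without molecular identifiers are not independent molecules.

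The mm9 positions of Il1r1 (from about 40.282 Mb) and Il18r1 (about 40.52 Mb) were the only gene positions available on the build of the reads, and they divide the cluster into 3 stretches: 172 kb with Il1r2, 238 kb with Il1r1, Il1rl2 and Il1rl1, and 130 kb with Il18r1 and Il18rap. No site was assigned to a single gene beyond this. In the RefSeq gene table for GRCm38, which was used for names and order only, Map4k4 precedes the 6 genes and Slc9a4 follows them, so sites near the ends of the cluster may lie closer to these neighbours.

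The promoter windows of the 6 genes are shown because STAT proteins recognise a short palindrome, TTC and GAA separated by 3 bases (TTCNNNGAA), or by 4 bases in sites known from STAT6. RefSeq lists 10 starts for the 6 genes in GRCm38.p6, all on the plus strand, and each window runs from 250 bases before to 50 bases after a start. TTCNNNGAA was found in 2 of the 10 windows, against 8.30% of 32851 promoter windows of the same length, and TTC and GAA separated by 4 bases in 3 of the 10, against 6.95%. Both motifs read the same on either strand, and no match of one overlapped a match of the other. The last of the 3 Il18r1 starts had TTCNNNGAA at 2 places, 219 and 152 bases before the start, and the Il1r2 start had it 111 bases before. The 4-base form stood before the other 2 Il18r1 starts, whose windows overlap and share 1 match, and before Il18rap. The first Il1r1 start, shown because tall STAT3 sites lay near the approximate position of that gene, had neither, like the other Il1r1 start and those of Il1rl2 and Il1rl1. The window of the first Il1r1 start begins at 40224830 and that of the other at 40266336. Which of these starts the approximate mm9 position stands for is not known here. Capitals mark TTCNNNGAA, and each sequence runs 5′ to 3′ on the plus strand.
Il18r1, last start, GRCm38.p6 chr1:40465756-40466055: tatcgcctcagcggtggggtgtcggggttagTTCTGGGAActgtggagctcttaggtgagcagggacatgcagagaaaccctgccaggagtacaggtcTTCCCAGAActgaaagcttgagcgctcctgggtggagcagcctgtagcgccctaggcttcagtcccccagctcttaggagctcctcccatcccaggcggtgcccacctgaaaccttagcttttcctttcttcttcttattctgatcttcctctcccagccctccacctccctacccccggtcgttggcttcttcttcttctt
Il1r2, GRCm38.p6 chr1:40085843-40086142: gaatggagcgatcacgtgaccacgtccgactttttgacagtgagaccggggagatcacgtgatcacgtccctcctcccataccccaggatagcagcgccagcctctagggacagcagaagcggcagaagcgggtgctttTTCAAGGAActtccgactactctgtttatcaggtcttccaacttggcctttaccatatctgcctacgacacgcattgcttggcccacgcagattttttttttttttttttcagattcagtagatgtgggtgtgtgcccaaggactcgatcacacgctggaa
Il1r1, first start, GRCm38.p6 chr1:40224830-40225129: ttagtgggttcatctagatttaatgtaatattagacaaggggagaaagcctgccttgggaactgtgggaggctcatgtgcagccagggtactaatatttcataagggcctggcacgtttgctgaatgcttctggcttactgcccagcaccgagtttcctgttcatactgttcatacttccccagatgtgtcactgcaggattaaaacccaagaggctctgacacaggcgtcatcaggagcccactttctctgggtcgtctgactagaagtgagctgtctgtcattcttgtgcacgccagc
These positions are on another build than the reads and cannot be set against the positions of the sites. A match is a description of the letters, not a measured binding site.

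Both STAT3 and STAT5 reads were dense over the cluster. It held 14497 STAT3 reads and 15293 STAT5 reads, or 26.8 and 28.3 reads per kb, which is 3.05 times the genome's STAT3 level and 3.72 times its STAT5 level. Sites numbered 10.9 per 100 kb, against 3.35 on chromosome 1 and 3.65 in the genome. Among 4625 consecutive stretches of this length over the genome, the median held 12 sites, and 167 (3.61%) held at least 59. The density was not confined to the receptor genes. The stretch of equal length before the cluster held 77 sites, and the one after it 20.

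**Figure D1:**
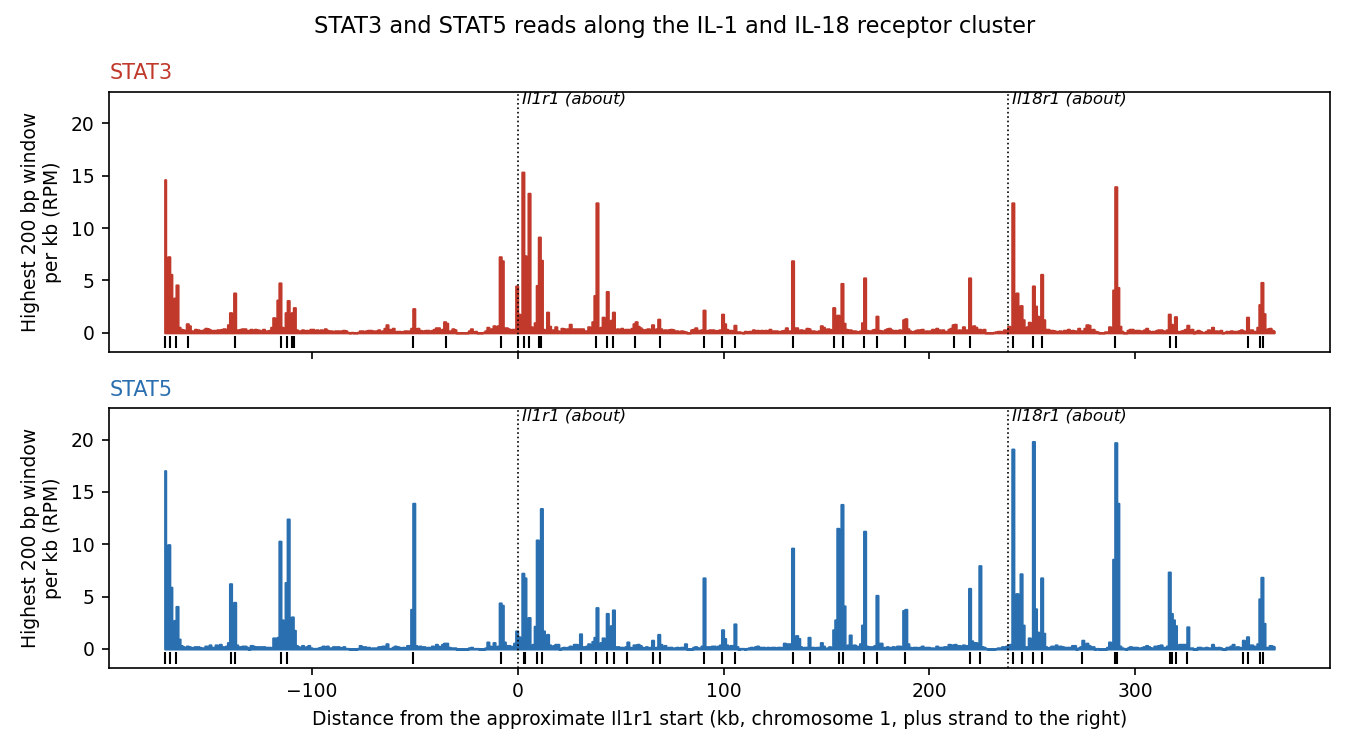
Highest 200 bp window in each kb of the cluster, in RPM (y axis), for STAT3 (upper panel) and STAT5 (lower panel), by distance in kb from the approximate Il1r1 start (x axis). Black ticks mark called regions and dotted lines the approximate Il1r1 and Il18r1 positions. STAT3 is tallest just after Il1r1 (319 reads, 15.3 RPM), and STAT5 is tallest after Il18r1 (356 reads, 19.8 RPM).

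Of the 59 sites, 42 held a STAT3 region (65.9% of all sites in the genome did) and 47 a STAT5 region (81.8%). Both were called at 30 (47.7%), STAT3 alone at 12 (18.2%) and STAT5 alone at 17 (34.1%), so the makeup of the cluster was near that of the genome. The median site had 48 STAT3 reads, against 25 over the genome, and 80 STAT5 reads, against 31 over the genome. By STAT3 reads 5 of the 59 were among the top 1% of sites in the genome, and by STAT5 reads 1 was. Among the top 10% the numbers were near equal, 16 by STAT3 reads and 15 by STAT5 reads. A site called with 1 antibody was often not empty of the other: STAT5 reads at the 12 STAT3-only sites numbered 5 to 147 (median 31.5), and STAT3 reads at the 17 STAT5-only sites 2 to 143 (median 14). The calls compare each window with its surroundings, so that tall sites in a dense run can go uncalled.

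Where both regions were called, their summits lay within 50 bp of each other at 26 of the 30 sites, and 400 bp apart at the site from 40532101 to 40532900. In 400 bp around the site centre, the median fragment position differed by a median of 12 bp over these 30 sites and by 25 bp or less at 23 of them. The largest difference of this median was 110.5 bp, at the site from 40166651 to 40167150. Both libraries were measured in the same 400 bp, and shared sites have overlapping regions, which limits how large these differences can be. Reads of the libraries correlated with Spearman's rho = 0.579 across the 59 sites and 0.375 across all sites of the genome. Sites are not independent replicates, and each was chosen for reads in at least 1 of these same libraries.

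A site was called higher with 1 antibody when the interval of its ratio lay wholly beyond 2-fold. STAT3 was higher at 2 of the 59 sites (3.39%, exact 95% interval 0.413 to 11.7%), against 3.18% of all sites, and STAT5 at 16 (27.1%, 16.4 to 40.3%), against 27.7%. The shares over the cluster were thus near those of the genome. The site nearest inside the limit, from 40456251 to 40456850, had 33 reads of STAT3 and 92 of STAT5, and the one nearest outside, from 40387251 to 40387650, had 14 and 43. The median ratio was 0.695, against 0.737 over the genome. None of the 12 sites with over 100 reads of each antibody was called, and their ratios ran from 0.466 to 2.15. These 12 were picked for many reads of both, in windows that hold at most 400, which limits how far their ratios can lie from 1. The share called among such sites of the genome was not counted. With a correction for positions taken, given below, some of the 12 cleared 2-fold. Scaling by 10 kb bins without a region multiplies every ratio by 0.723, leaving 1 site higher with STAT3 and 27 with STAT5. It shifts the ratios of all sites of the genome alike, and their shares under this scaling were not counted.

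**Figure D2:**
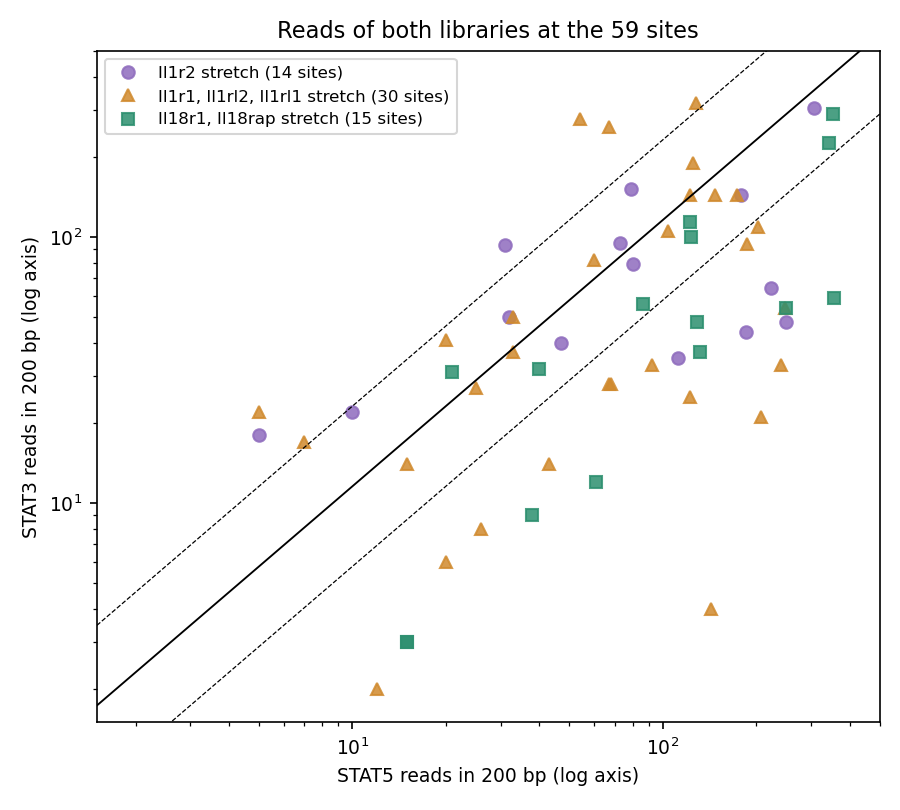
STAT3 reads (y axis) against STAT5 reads (x axis) in 200 bp at each of the 59 sites, on log axes, marked by stretch. The solid line is equal RPM and the dashed lines are 2-fold. At 2 sites STAT3 exceeded 200 reads with under 100 STAT5 reads, and at 7 sites STAT5 exceeded 200 with under 100 STAT3 reads. The share of such sites over the genome was not counted. Whatever the other library, 6 of the 59 sites exceeded 200 STAT3 reads (2.05% of all sites did) and 11 exceeded 200 STAT5 reads (6.61%).

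The stretch with Il1r2, the decoy receptor, had 14 sites in 172 kb, of which 13 held a STAT3 region and 9 a STAT5 region. Its reads numbered 4211 for STAT3 and 3804 for STAT5, giving a ratio of 0.957 (0.916 to 1.00). The site of this stretch tallest with either antibody lay at the very beginning of the cluster, from 40110551 to 40111050, with 304 STAT3 and 306 STAT5 reads (ratio 0.859, interval 0.730 to 1.01). A neighbour 2.2 kb on, from 40112851 to 40113150, had 144 and 179 reads (0.695, 0.554 to 0.871). These sites near the border had much of both antibodies, and neither was called higher with one.

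Further into the Il1r2 stretch, 4 of the 14 sites were higher with STAT5 (28.6%, against 27.7% of all sites) and none with STAT3 (against 3.18%). The site from 40169951 to 40170350 had 64 STAT3 and 223 STAT5 reads (0.248, 0.185 to 0.329), and another 3.2 kb before it, from 40166651 to 40167150, had 44 and 185 (0.206, 0.144 to 0.287). The counts of the latter were taken at its STAT5 summit, and STAT3 was taller beside it. The highest 200 bp windows of that kb had 4.76 RPM of STAT3 and 10.3 RPM of STAT5, a smaller difference. After these sites and a pair of STAT3-only sites, with 40 and 50 STAT3 reads against 47 and 32 STAT5 reads, came a gap of 57.35 kb, the longest in the cluster. In this gap the reads stood at 8.40 per kb for STAT3 and 5.25 per kb for STAT5, above the genome's 6.78 for STAT3 and 4.71 for STAT5 outside regions. It ended at a lone site from 40230951 to 40231450, 50.8 kb before the approximate Il1r1 start, where 48 STAT3 and 250 STAT5 reads were counted (0.166, 0.119 to 0.227). Apart from the first site of the cluster this was the tallest STAT5 site of the stretch.

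STAT3 reads peaked near the approximate start of Il1r1, the signalling IL-1 receptor. At 7.95 kb before its approximate start the site from 40273851 to 40274300 had 151 reads of STAT3 and 79 of STAT5 (1.65, 1.25 to 2.20). At the approximate start itself, from 40281801 to 40282000, there were 93 and 31 reads (2.59, 1.71 to 4.03). The tallest STAT3 site of the cluster followed 2.95 kb after it, from 40284701 to 40285150, with 319 STAT3 and 128 STAT5 reads (2.15, 1.75 to 2.67). It ranked 231 of 86148 by STAT3 reads in the genome, against 10620 by STAT5 reads. At all 3 sites the interval lay above 1, as it did at 17.5% of sites in the genome, but did not clear 2-fold. With a correction for positions already taken, the ratio of the tallest was 3.58 (3.00 to 4.30), which cleared 2-fold. The correction assumes that reads fall evenly on the 400 positions of a window. Its intervals, here and below, treat corrected values as counts and are too narrow at tall sites. Scaled by bins without a region the ratio of the tallest was 1.56 (1.26 to 1.93). That of the site from 40273851 was 1.19 (0.904 to 1.59), an interval that holds 1.

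The site with the clearest STAT3 excess lay 5.4 kb after the approximate Il1r1 start. From 40287251 to 40287600 there were 277 reads of STAT3 and 54 of STAT5, a ratio of 4.43 (3.30 to 6.05), and no STAT5 region was called. The other site higher with STAT3 lay 32.8 kb further on, from 40320001 to 40320450, with 258 and 67 reads (3.33, 2.53 to 4.42). It ranked 760 of the genome's sites by STAT3 reads, against 21375 by STAT5 reads. The same correction gave ratios of 7.03 and 4.88 for these sites. Scaled by bins without a region they were 3.20 (from 2.39) and 2.41 (from 1.83), which ends the call of the site from 40320001.

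Near the first of these sites the order turned round. Only 6.5 kb after it, from 40293751 to 40294050, there were 33 STAT3 and 241 STAT5 reads (0.118, 0.0796 to 0.171). The called sites around and between them had intermediate ratios. From 40285401 to 40285750 there were 143 STAT3 and 122 STAT5 reads (1.01, with 1 in the interval), and from 40291301 to 40291550 there were 94 and 187 (0.434, 0.335 to 0.560). The next sites, from 40292401 to 40292700 and from 40293051 to 40293350, had 190 and 144 STAT3 reads against 125 and 147 STAT5 reads, at ratios of 1.31 and 0.847. The first of these turned to 0.949 when scaled by bins without a region. Neighbouring sites within a few kb thus differed in their STAT3/STAT5 ratio by more than counting error.

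These 8 sites lie in a run from 40281801 to 40294050, delimited after its values were seen. The whole run, with the reads between its sites, held 15.3% of the STAT3 reads and 11.8% of the STAT5 reads of the cluster. It covers 2.27% of the length of the cluster. Summed over all reads of the run, 2213 STAT3 and 1801 STAT5 reads gave a ratio of 1.06 (0.998 to 1.13), an interval that holds 1. Of these, 610 STAT3 and 582 STAT5 reads lay outside regions, at a ratio of 0.906 (0.807 to 1.02). The ratio of the reads inside regions was thus higher than that of the sum. In the rest of the run outside regions the level was 62.6 STAT3 and 59.7 STAT5 reads per kb, and some windows there were tall without being called.

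**Figure D3:**
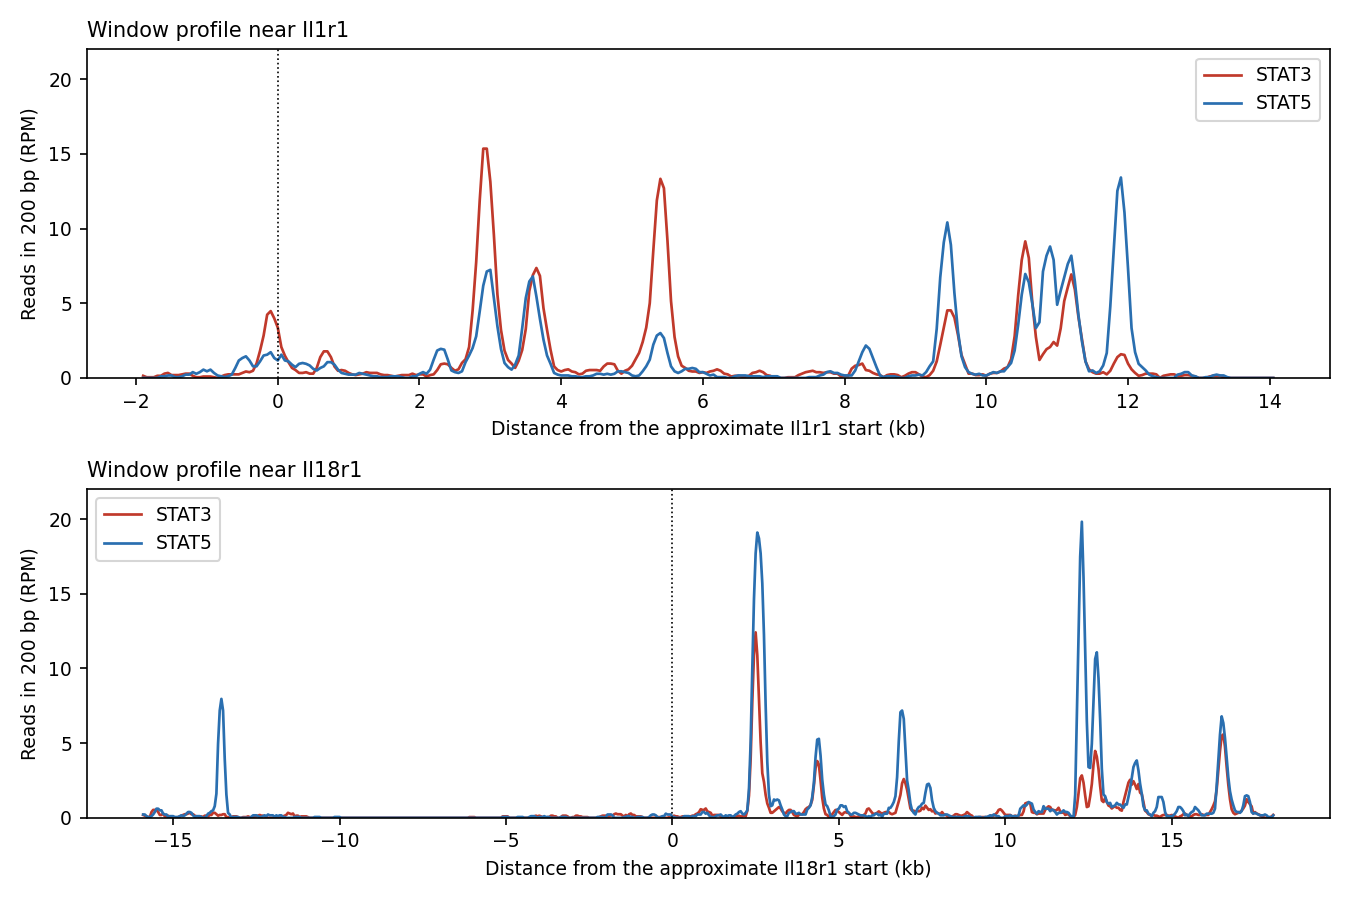
Reads in 200 bp windows moved by 50 bp, in RPM (y axis), for STAT3 and STAT5, by distance in kb from the approximate start (x axis) of Il1r1 (upper panel) and Il18r1 (lower panel). Near Il1r1 the peaks at 2.95 and 5.4 kb have more STAT3 (15.3 and 13.3 RPM, against 7.13 and 3.01 for STAT5). Of these only the peak at 5.4 kb was called higher with STAT3. The one at 11.9 kb is higher with STAT5 (1.59 RPM for STAT3 and 13.4 for STAT5). Near Il18r1 the peaks at -13.55 and 12.3 kb are higher with STAT5 (4 and 59 STAT3 reads, against 143 and 356 STAT5 reads).

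Between this run and Il18r1 lie the rest of Il1r1, the IL-36 receptor gene Il1rl2 and the ST2 gene Il1rl1. The whole stretch from Il1r1 to Il18r1 had 30 sites, and its 6785 STAT3 and 6397 STAT5 reads gave a ratio of 0.917 (0.886 to 0.949). Moving its borders by 5 kb towards Il18rap, which takes the tallest STAT3 site into the Il1r2 stretch, changed this ratio to 0.823. The 10 sites from 40325401 to 40387650 were low, with 2 to 82 STAT3 reads and 5 to 122 STAT5 reads. Of them 1 was called higher with STAT5, as 27.7% of all sites were, and none with STAT3. This was the site from 40372151 to 40372750, with 25 STAT3 and 122 STAT5 reads (0.177, 0.110 to 0.274). The largest ratio among them, 3.80 (1.41 to 12.9) from 40339001 to 40339200, rested on 22 reads of STAT3 and 5 of STAT5.

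Toward Il18r1, sites tall with both antibodies lay among sites called higher with STAT5. From 40415551 to 40416100 there were 143 STAT3 and 173 STAT5 reads (0.714, 0.568 to 0.897). Then followed a pair of sites 2 kb apart that were higher with STAT5: 21 STAT3 and 207 STAT5 reads from 40437751 to 40438100 (0.0877, 0.0531 to 0.138), and 54 and 248 from 40439501 to 40440150 (0.188, 0.138 to 0.253). When the highest window of each library near the centre was used instead, the second of these had a ratio of 0.296. From 40450001 to 40450500 both were present, with 109 STAT3 and 202 STAT5 reads (0.466, 0.366 to 0.592).

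The smallest ratio of the cluster was found 13.55 kb before the approximate Il18r1 position. From 40506251 to 40506650 the STAT3 library had 4 reads and the STAT5 library 143, a ratio of 0.0242 (0.00650 to 0.0633). This STAT3 count was at the level beside the sites of the cluster, where 200 bp windows 5 kb away held 4.03 STAT3 and 3.13 STAT5 reads on average. Only 4.75 kb before it, from 40501451 to 40501950, the antibodies were near equal with 105 STAT3 and 104 STAT5 reads (0.873, 0.659 to 1.16). After the STAT5 site came 4 kb, from 40509951 to 40513950, in which neither library had a read. In all, 23 of the 540 kb of the cluster had no read of either library, and whether 25-base reads can be placed there was not tested.

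**Figure D4:**
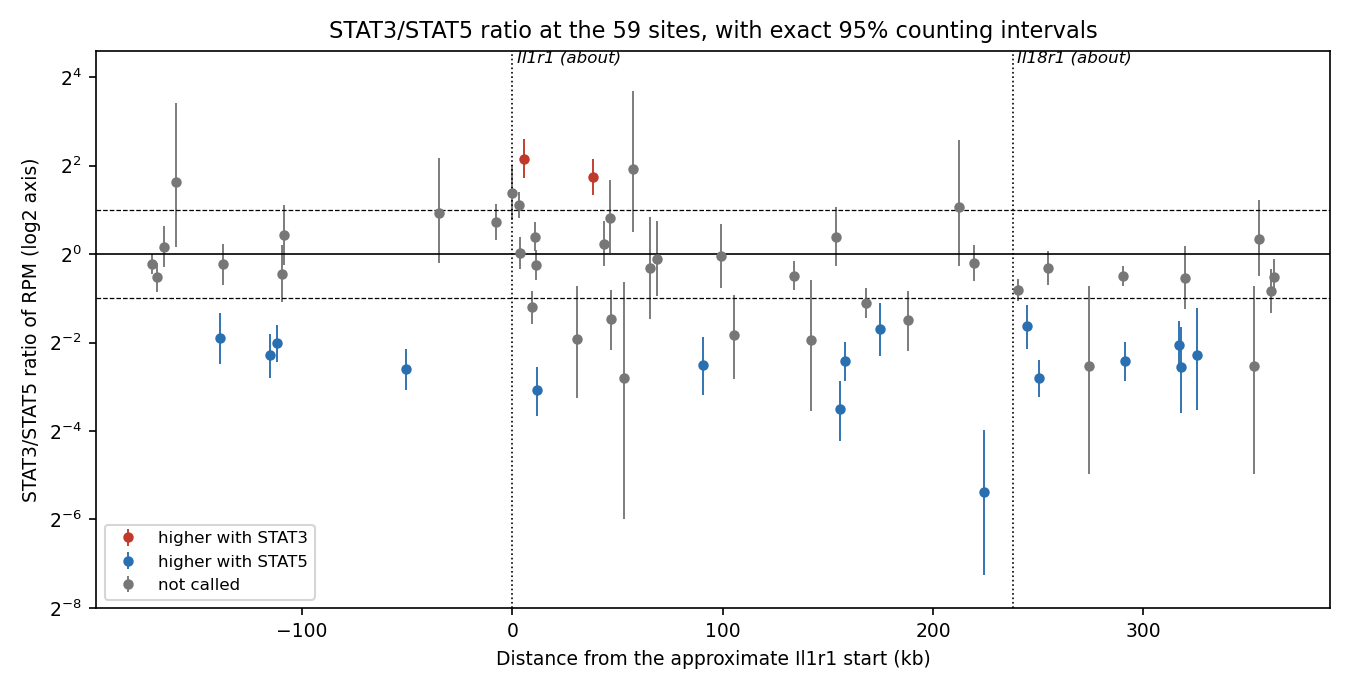
STAT3/STAT5 ratio of RPM (y axis, log2 scale) with exact 95% counting intervals at each of the 59 sites, by distance in kb from the approximate Il1r1 start (x axis). Dashed lines mark 2-fold. The 2 sites higher with STAT3 lie 5.4 and 38.2 kb after the Il1r1 position, and the 16 higher with STAT5 are spread over all 3 stretches (4, 6 and 6).

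The stretch with Il18r1 and Il18rap, the chains of the IL-18 receptor, had the lowest STAT3/STAT5 ratio of reads. Its 15 sites all held a STAT5 region, as 81.8% of all sites did, and 9 also held a STAT3 region. None was called higher with STAT3 and 6 were called higher with STAT5 (40.0%, exact 95% interval 16.3 to 67.7%), an interval that holds the 27.7% of all sites. Its 3501 STAT3 and 5092 STAT5 reads gave a ratio of 0.594 (0.569 to 0.620), below the intervals of both other stretches. Inside regions the ratio was 0.424 (0.399 to 0.450), against 0.619 in the genome. It was 0.741 (0.706 to 0.777) in the Il1r1 stretch and 0.671 (0.629 to 0.717) in the Il1r2 stretch. Regions were called from these same reads, so STAT5-only sites lower this ratio and STAT3-only sites raise it. STAT5-only and STAT3-only sites numbered 6 and 0 here, 10 and 7 in the Il1r1 stretch, and 1 and 5 in the Il1r2 stretch. Over the genome they were 34.1% and 18.2% of sites. Outside regions the ratio was 0.926 (0.867 to 0.989) here, against 1.15 and 1.29 in those stretches and 1.24 in the genome. In the regions here the STAT3 level was 13.1 RPM per kb, against 13.2 and 15.2 in those stretches. The STAT5 level was 30.9, against 17.8 and 22.7. Regions covered 6.05 kb here, against 11.35 and 5.05 kb. Scaling multiplies the ratios of all stretches alike and does not change their order.

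**Figure D5:**
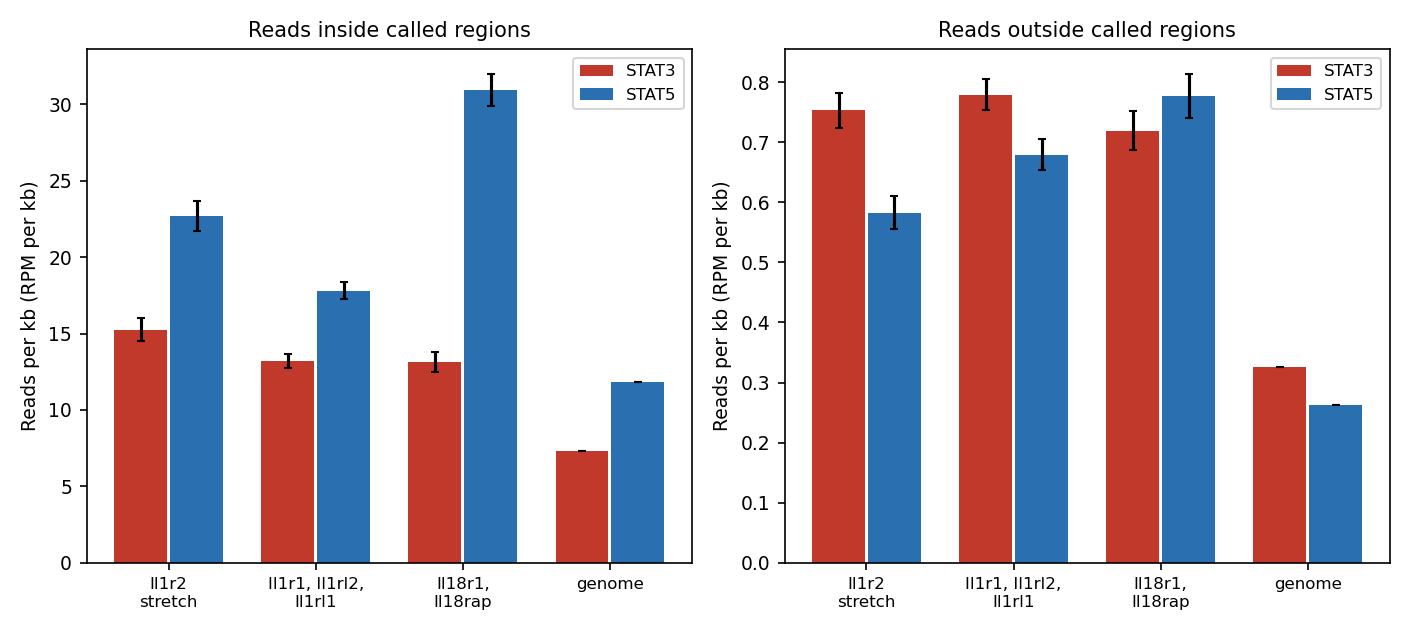
RPM per kb (y axis) inside called regions (left) and outside them (right) for STAT3 and STAT5 in the 3 stretches and the genome, with exact 95% counting intervals as error bars. Inside regions the STAT5 level of the Il18r1 and Il18rap stretch is 30.9 RPM per kb, and outside regions all stretches exceed the genome (0.326 for STAT3 and 0.262 for STAT5).

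The first site after the approximate Il18r1 position, at 2.55 kb, was tall with both antibodies. From 40522301 to 40522850 it had 226 STAT3 and 343 STAT5 reads (0.569, 0.479 to 0.676), ranks of 1203 and 1141 in the genome. It was not called, but cleared the 2-fold limit toward STAT5 with the correction for positions taken (0.369, 0.324 to 0.420) and when scaled by bins without a region (0.412, 0.346 to 0.488). The next site, 6.9 kb after the approximate position, had 48 STAT3 and 129 STAT5 reads (0.322, 0.226 to 0.451) and was called higher with STAT5. At 12.3 kb, from 40532101 to 40532900, stood the tallest STAT5 site of the cluster, with 59 STAT3 and 356 STAT5 reads at its centre (0.143, 0.107 to 0.189). This site was 800 bp wide and held a second, lower STAT5 peak. The STAT3 summit lay there, 400 bp from the STAT5 summit, with 4.47 RPM of STAT3 and 10.6 RPM of STAT5. With the correction for positions taken the ratio was 0.0625. The next site, from 40536301 to 40536750, had 114 STAT3 and 122 STAT5 reads (0.808, 0.620 to 1.05).

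A further tall pair lay 52.2 and 53.3 kb after the approximate Il18r1 position. From 40572001 to 40572400 there were 290 STAT3 and 354 STAT5 reads (0.708, 0.604 to 0.829), the tallest STAT3 site of the stretch. Only 1.1 kb further, from 40573001 to 40573500, there were 54 STAT3 and 250 STAT5 reads (0.187, 0.136 to 0.251), or a ratio of 0.311 with the highest window of each library. The pair differed more in STAT3 than in STAT5 reads. Beyond it the sites were lower. The 4 from 40598501 to 40607550 held between 9 and 37 reads of STAT3 and between 38 and 132 of STAT5. Of these, 3 were called higher with STAT5, as 27.7% of all sites were. These 4 were grouped after their values were seen, and so few sites do not allow a comparison of shares. At the far end, from 40643701 to 40644150, there were 100 STAT3 and 123 STAT5 reads (0.703, 0.534 to 0.922).

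Outside called regions the cluster was also above the genome. Its STAT3 level there was 15.7 reads per kb, against 6.78 in the genome, and its STAT5 level 12.1, against 4.71. The ratio outside regions was 1.13 (1.09 to 1.16), against 1.24 in the genome, and inside regions it was 0.607 (0.588 to 0.627), against 0.619. Over all reads of the cluster it was 0.819 (0.801 to 0.838), between these levels. Regions held 43.9% of the STAT3 reads and 59.2% of the STAT5 reads of the cluster on 4.16% of its length, against 24.1% and 39.0% on 1.39% of the genome. When windows were compared with the genome-wide mean alone, the cluster had 89 sites. These overlapped all 59 reported ones and 36 were additional, with up to 74 STAT3 and 95 STAT5 reads. The tallest addition lay between the sites after Il18r1, from 40523951 to 40524750, with 74 STAT3 and 95 STAT5 reads (0.673, 0.490 to 0.922).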

How the data were processed

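Each deposited file lists the aligned reads of 1 library without a header, on mm9 per the submitters' processing notes. The aligner and any removal of repeats were not given in the sources used here. All reads had 25 bases, none shared its position and strand with another, and the deposited score was 0 in every line and was not used. The deposited values are positions, so all counts were computed here with scipy 1.17.1, numpy 2.4.6 and pandas 2.3.3 under Python 3.11.15, and plots drawn with matplotlib 3.10.9.

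Read 5′ ends were moved 50 bp in the 3′ direction and tallied on the autosomes, X and Y in 200 bp windows starting every 50 bp. A call needed 5 reads or more, 4-fold or more over each of 3 means (genome-wide, 5 kb and 10 kb), and a Poisson p (1-sided, Benjamini-Hochberg adjusted over all windows of the genome with a read) at or below 1e-05. Windows within 100 bp were joined, and regions with over 80% of summit reads on 1 strand were left out. This gave 56920 STAT3 and 70560 STAT5 regions. Regions sharing at least 1 bp made 1 site, whose centre was the summit of highest RPM. Ratios have exact conditional (Clopper-Pearson) intervals that cover counting error only, and with 1 library per antibody no p-value was computed between them. The caller and the ratio calls were tried on simulated reads with sites far apart on an even background. Dense runs of sites like those of this cluster were not simulated. Sites given by position are the 10 with most reads of each antibody, the 5 with the largest ratio on each side and the tallest of each stretch, and others where they lie beside these, chosen after their values were seen. The cluster and the lists were chosen with earlier results of these data known. An annotation and sequence of mm9 were not used here, so sites carry no sequence, and other genes of the pathway have no values. Promoter windows are RefSeq's for GRCm38.p6, and 6 of 6 genes were matched.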

Additional observations from a re-analysis of the deposited data

How the results depend on the processing

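No paired analysis was possible because there was 1 library per antibody, so no replicate could be left out either. A minimum fold of 8 left 25 sites, of which 14 held a STAT3 region, 20 a STAT5 region and 9 both, with 1 higher with STAT3 and 9 with STAT5. The genome-wide mean alone gave 89 sites, 72 with a STAT3 region and 53 with both, and 4 higher with STAT3. Fewer or more regions follow from these rules themselves. Scaling by bins without a region left 1 site higher with STAT3 and 27 with STAT5, and an interval beyond 1.5-fold gave 4 and 25. Shares over all sites of the genome were not counted under any of these settings. The ratio over the cluster was 0.592 when scaled by those bins, 1.13 outside regions and 0.607 inside them. Moving the borders by 5 kb towards Il18rap gave 1.02 for the Il1r2 stretch and 0.823 for the Il1r1 stretch, since tall sites changed sides. In the other 48 recalculations of such counts and sums, counts moved by at most 1.5 times and ratios stayed inside their interval. Under the 8 alternatives for site ratios no site called with one antibody became called with the other. With the highest window of each library within 200 bp of the centre, 3 sites lost their call toward STAT5. Without a control library, sites include any place that yields more reads whatever the antibody. Depth limits what is seen: the smallest site had 12 reads of its stronger antibody.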
